A study of Mus musculus with 8 samples.

Results

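The genes described here encode 9 transcription factors and coregulators tied to ovulation: the progesterone receptor PGR, the CCAAT/enhancer-binding proteins C/EBPβ and C/EBPδ, RUNX1 and RUNX2, the coregulator NRIP1 (also called RIP140), the fatty acid receptors PPARα and PPARγ, and EPAS1, the HIF-2α subunit. They were taken by name, as every probe set whose annotated symbol is exactly Pgr, Cebpb, Cebpd, Runx1, Runx2, Nrip1, Ppara, Pparg or Epas1. Of the 9 genes, 8 were measured, each by 1 probe set, so the group holds 8 of the 12422 probe sets tested. No probe set carries the symbol Runx2, and no value is given for it.

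The samples were cumulus cells, which enclose the oocyte in the follicle, from female C57Bl/6 mice of 3 to 4 weeks. WT mice were set beside mice with the genotype Ptger2(-/-), called EP2KO and named for EP2, a receptor for prostaglandin E2 that Ptger2 encodes. The labels do not describe the allele further. Every mouse received 5 IU of PMSG, which acts like FSH. The 0 h samples were taken 48 h later without hCG, and the others at 3, 9 or 14 h after 5 IU of hCG, which acts like the LH surge. One Affymetrix MG_U74Av2 array was made for each genotype and time, which gives 8 arrays and no replicates within a group; the labels do not say how many mice went into an array. At 0, 3 and 9 h the cells were stripped by hand from complexes let out of ovarian follicles. At 14 h the ovulated complexes came from the oviduct and were treated with 0.1% hyaluronidase, so the time after ovulation and the way of collection cannot be told apart.

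All of these proteins act on transcription. PGR is a steroid receptor that the LH surge induces in granulosa cells of the ovulating follicle, and mice without it fail to release their oocytes. C/EBPβ and C/EBPδ are leucine zipper proteins that bind DNA as dimers, and C/EBPβ is a mediator of the LH signal through MAP kinases. RUNX1 and RUNX2 bind DNA through a runt domain together with the partner CBFβ. NRIP1 binds nuclear receptors and mostly represses their targets; ovulation fails in its absence. PPARα and PPARγ pair with RXR receptors and respond to fatty acids, and EPAS1 pairs with ARNT when oxygen is low.

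Of 12 cumulus and granulosa markers 9 were measured, and Inha, an inhibin subunit, read from 12.34 to 14.37 on the log2 scale in the 8 arrays; 7 of the 9 were lower at 14 h than at 0 h. Array medians lay between 7.79 and 7.89. The standard deviation of the values was 1.99 and 1.96 on the 3 h arrays and from 1.77 to 1.91 on the others. Ptger2, the gene named in the EP2KO genotype, read 4.95, 5.97, 5.37 and 5.33 in WT at 0, 3, 9 and 14 h. In EP2KO it read from 4.24 to 4.69, so the genotypes did not overlap. All of these readings lay far below the array medians, so the size of the gap cannot be read closely. The 3' minus 5' difference of the Gapdh control probe sets grows as RNA gets shorter. It was 2.87 and 2.82 on the 14 h arrays, 0.80 and 0.96 on those of 3 h, and from 1.22 to 1.86 on those of 0 and 9 h. For Actb it was 1.61 and 1.37 at 14 h and from 0.69 to 1.54 on the others, so the Actb values overlapped. Oviduct markers also stood apart at 14 h: Ovgp1, the oviduct glycoprotein, rose by 3.65 and 4 of the 9 listed markers were higher and 1 lower than at 0 h. Leukocyte markers were higher for 8 of 19 at 14 h. Among all genes 15.6% were higher and 15.7% lower at 14 h than at 0 h. Results at 14 h were obtained on arrays that differ from the rest in the Gapdh control and in these marker lists, and their part in the results was not tested. The 3 h arrays also stood apart, with the lowest Gapdh differences and the largest standard deviations. The part of this in the changes at 3 h was not tested either.

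The factors changed most within the first 3 h. Of their 8 probe sets, 5 rose and 1 fell between 0 and 3 h at an adjusted p under 0.05, where 42.8% of all probe sets were called, 17.4% higher and 25.4% lower. At 9 h against 0 h, 2 rose and 2 fell (23% of all called, 10.9% higher and 12.1% lower). At 14 h against 0 h 4 were higher and 2 lower (28.8% of all called, 13.5% higher and 15.2% lower). Between 3 and 9 h 3 fell and none rose (19.4% of all called, 7.59% higher and 11.8% lower), and between 9 and 14 h 1 rose and 4 fell (20.1% of all called, 10% higher and 10.1% lower). Their median change was 0.66 at 3 h, 0.13 at 9 h and 0.33 at 14 h, beside −0.14, −0.08 and −0.06 for all probe sets. In bulk samples like these, fewer cells of a type and less RNA per cell cannot be told apart. A change is the fitted difference of the 2 arrays of one time from the 2 arrays of another, in log2 units, so that 1 is a doubling of signal, and is given with its standard error (SE).

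**Figure D1:**
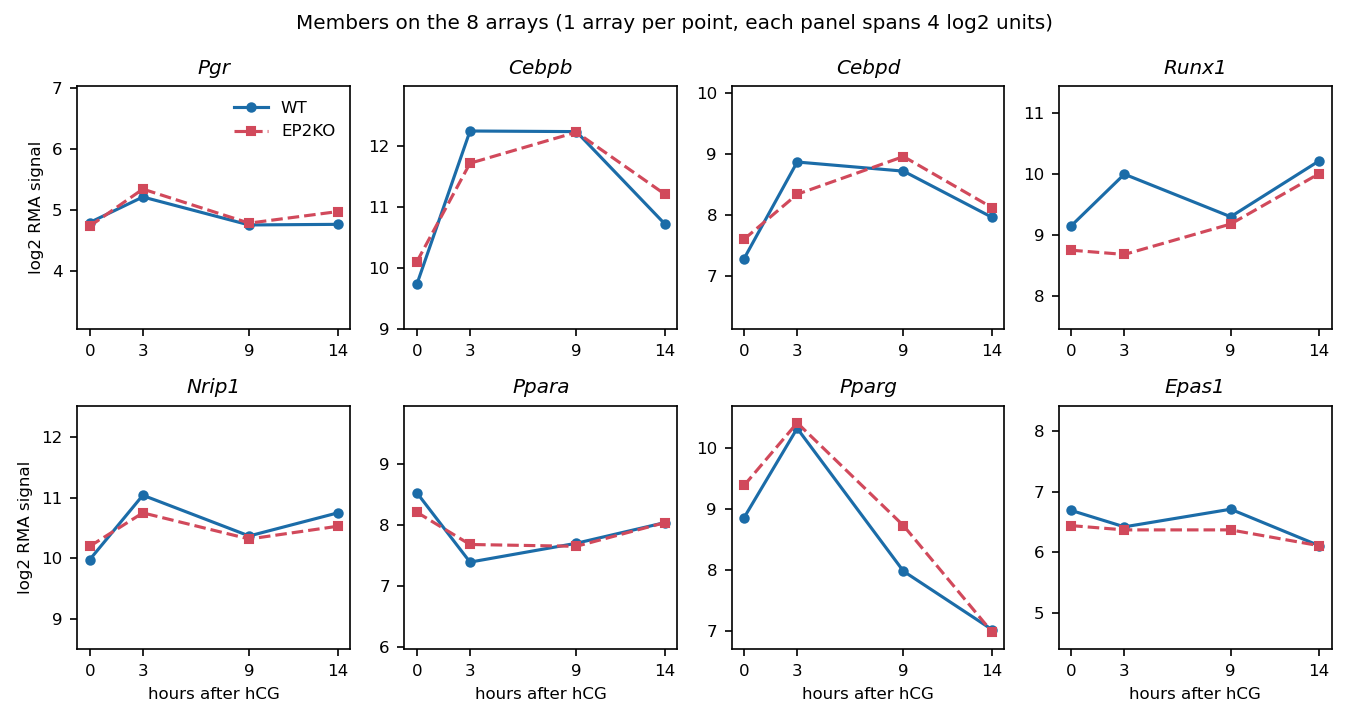
Each panel plots the log2 RMA signal of 1 factor (vertical axis, 4 log2 units in every panel) against hours after hCG, with 1 array per point, WT as blue circles and EP2KO as red squares. Cebpb is high at 3 and 9 h in both genotypes, Pparg peaks at 3 h and is lowest at 14 h, and the Runx1 points lie 1.32 apart at 3 h.

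The progesterone receptor itself gave a low signal. Pgr read 4.79, 5.21, 4.75 and 4.76 in WT at 0, 3, 9 and 14 h and 4.73, 5.34, 4.78 and 4.97 in EP2KO. The pair of 3 h arrays stood above the other 6, which overlapped among themselves at 0, 9 and 14 h. The rise at 3 h was 0.52 ± 0.12 (SE, 2 arrays per time; limma, adjusted p = 0.00781), and between 3 and 9 h Pgr fell by 0.51 (adjusted p = 0.016). At 9 h it stood 0.01 from its 0 h level. The probe set lay between the 5.3rd and the 12th percentile of its arrays, so the signal is near the bottom of the scale and a change in fold is compressed there. The rise did not pass without the EP2KO 0 h array (0.42, adjusted p = 0.0539). The fall from 3 to 9 h did not pass when any 1 of the 4 arrays of those times was left out, with adjusted p from 0.0586 to 0.146, while its size stayed between 0.48 and 0.55; in a fit of those 4 arrays alone its adjusted p was 0.0505.

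Of the genes tied to PGR in ovulating follicles, other than Pparg and Epas1, all 12 listed were measured. At 3 h 3 rose and 1 fell, at 9 h 7 rose, and at 14 h 6 rose, where 43.1%, 23.8% and 31.3% of all 8251 genes were called and 20.1%, 12.2% and 15.6% of all genes were higher. Ctsl, the protease cathepsin L, was up by 1.01 at 3 h, 1.15 at 9 h and 1.01 at 14 h. Cxcr4, a chemokine receptor, was up by 0.98 at 3 h and 1.26 at 9 h. Snap25, which acts in vesicle fusion, rose by 0.50 at 3 h, and Zbtb16, a zinc finger repressor, fell by 0.34. At 9 h Il6, the cytokine interleukin 6, was up by 0.75 and Edn2, the contractile peptide endothelin 2, by 0.68. At 14 h Prkg2, a cGMP-dependent kinase, was up by 0.52, Adam8, a membrane protease, by 0.52; at 3 h these stood at −0.21 and 0.02 and did not pass. Adamts1, a matrix protease, was called higher at 9 and 14 h, but its probe set read from 3.49 to 4.2, at or under the 2.7th percentile of every array, so neither the size of its rise nor the lack of a call at 3 h can be read. Il6 was at or under the 14.7th percentile throughout and Snap25 at or under the 20.2nd. Cxcr4 was at or under the 8.2nd at 0 h, so the size of its rise is not exact. Among the 5 measured steroid receptors and progesterone-binding proteins none passed at 3 h, while Esr2, the estrogen receptor β, was lower by 1.22 at 9 h and fell by 2.71 over 14 h.

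The C/EBP genes rose together and were the factors whose rise lasted to 9 h. Cebpb read 9.73, 12.25, 12.24 and 10.72 in WT at 0, 3, 9 and 14 h and 10.1, 11.72, 12.23 and 11.21 in EP2KO. Every array after hCG was above both 0 h arrays, and the 9 h arrays differed by 0.01. Cebpb was up by 2.07 ± 0.208 at 3 h (SE; limma, adjusted p = 0.000123) and by 2.32 ± 0.208 at 9 h (adjusted p = 5.43e-05), a 4.2-fold and a 4.99-fold signal. It then fell by 1.27 between 9 and 14 h (adjusted p = 0.00152) and ended 1.05 above 0 h (adjusted p = 0.00341). Only 3 h and 9 h overlapped in the order of its levels, which ran 9, 3, 14 and 0 h. Without the WT 0 h array the 14 h difference was 0.86 and did not pass (adjusted p = 0.0692), and the fall from 9 to 14 h did not pass in a fit of the 4 arrays of those times alone (adjusted p = 0.0538).

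Cebpd followed the same order of times with smaller steps. It read 7.28, 8.87, 8.72 and 7.96 in WT at 0, 3, 9 and 14 h and 7.6, 8.34, 8.96 and 8.12 in EP2KO. As for Cebpb, the 6 arrays after hCG all lay above both 0 h arrays. It was up by 1.17 ± 0.186 at 3 h (SE; limma, adjusted p = 0.00127) and by 1.40 at 9 h (adjusted p = 0.000542), and fell by 0.80 between 9 and 14 h (adjusted p = 0.0116). At 14 h it was 0.60 above 0 h (adjusted p = 0.0346). That last call did not pass when any 1 of the 4 arrays of 0 and 14 h was left out, with changes from 0.42 to 0.78 and adjusted p from 0.0538 to 0.301. The fall from 9 to 14 h did not pass without the WT 14 h array (adjusted p = 0.075) or the EP2KO 9 h array (adjusted p = 0.108).

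Cebpb had the highest change from 0 h of the 8 at 3 and 9 h, and its promoter is shown for the core of the cAMP response element, since LH and hCG act through cAMP. The 250 bases before its start in RefSeq (GRCm38.p6, chr2:167688665-167688914, plus strand, 5′ to 3′) hold TGACG, on either strand, 3 times, in capitals:
Cebpb: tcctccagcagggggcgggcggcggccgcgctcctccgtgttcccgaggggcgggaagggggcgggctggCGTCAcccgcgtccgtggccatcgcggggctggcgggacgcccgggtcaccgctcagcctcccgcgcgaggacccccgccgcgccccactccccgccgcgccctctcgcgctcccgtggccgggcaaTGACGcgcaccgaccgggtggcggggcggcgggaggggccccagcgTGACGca
Counted back from the start, the matches begin at bases −180, −53 and −7. In RefSeq windows of 300 bases around the start, 20.8% of 32851 promoters hold the core and 1.03% hold it at least 3 times. The window of Cebpb is 80.7% G and C, and these shares were not matched for that. The full element, TGACGTCA, was found in 1.79% of all promoters and in no window of these genes. Of the 11 promoter windows listed for 7 of the 9 genes, the core was found in that of Cebpb and that of Ppara, a gene that fell at 3 h. Other motifs were searched in the same windows as well. One was the SP1 site, GGGCGG, found in 6 of the 11 and in 35.7% of all promoters. A match describes letters and not a bound site.

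Other leucine zipper genes of the C/EBP network rose early as well. Of 8 listed 6 were measured, and 4 rose at 3 h and none fell, where 20.1% of all genes were higher and 23% lower. Atf4, a stress factor that pairs with C/EBP proteins, rose by 1.65, Nfil3, a repressor, by 0.96, Cebpa by 0.74 and Cebpg by 0.66. Between 3 and 9 h, where 21.2% of all genes were called and 7.42% were higher, Cebpa fell by 0.98 and Cebpg by 0.72, while Cebpb stood 0.25 higher at 9 h and did not pass. Nfil3 went on to 2.19 above 0 h at 9 h, and Ddit3, an inhibitory partner, reached 0.98. Of 5 measured genes tied to C/EBP in granulosa cells, other than Runx1, 2 rose at 3 h and 4 were higher at 9 h and at 14 h. Among all genes 20.1%, 12.2% and 15.6% were higher at these times. Ptgs2, the inducible cyclooxygenase, was up by 6.99 at 3 h, from 4.83 and 5.03 at 0 h to 12.27 and 11.57, and Star, which brings cholesterol into mitochondria, by 4.11. Abcb1b, an efflux transporter, and Cyp11a1, the first enzyme of steroid synthesis, rose later, to 2.71 and 1.02 at 9 h and 5.15 and 3.11 at 14 h. At 0 h Ptgs2 was at or under the 7.7th percentile of its arrays and Abcb1b at or under the 9.7th, so the sizes of their rises are not exact and may be understated.

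The profiles nearest to the C/EBP genes were sought among 2854 probe sets of other genes that spanned at least 1 log2 unit, by the root mean square difference over the 8 arrays after each was centred on its own mean. Nearest to Cebpb were Sertad1, a cell cycle coregulator, at 0.173, Card19 at 0.215 and Map1lc3b, an autophagy protein, at 0.248, against a median of 0.978 over all candidates. Nearest to Cebpd were Taldo1, transaldolase, at 0.128, Abhd5, a lipolysis cofactor, at 0.156 and Vti1b, a vesicle protein, at 0.158, against a median of 0.695.

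**Figure D2:**
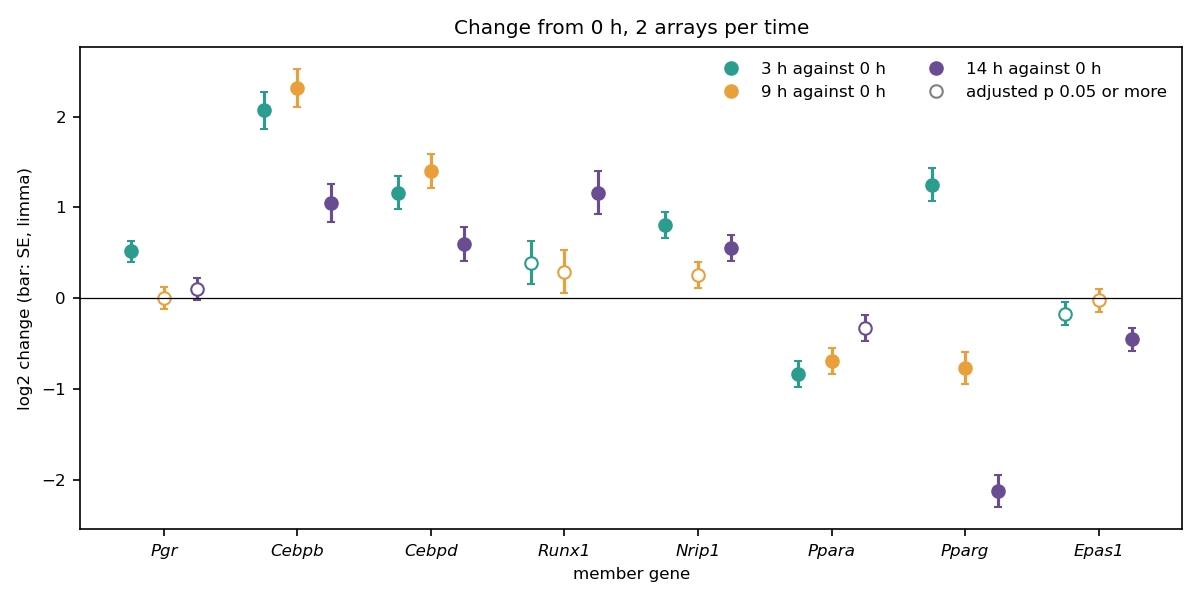
The plot gives the log2 change from 0 h (vertical axis) of the 8 factors at 3, 9 and 14 h, as fitted by limma over 2 arrays per time, with bars of 1 SE and open symbols where the adjusted p was 0.05 or more. Cebpb and Cebpd are above 0 at all 3 times, Ppara is below 0, and Pparg goes from 1.25 at 3 h to −2.13 at 14 h.

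Runx1 was the factor in which WT and EP2KO differed most. In WT it read 9.15, 10, 9.3 and 10.22 at 0, 3, 9 and 14 h. In EP2KO it read 8.75, 8.68, 9.18 and 10.01. In WT the level was 0.85 higher at 3 h than at 0 h, and in EP2KO 0.07 lower, so at 3 h the EP2KO array was 1.32 below WT, a 2.5-fold lower signal. That gap was reached or passed by 16 of the 12422 probe sets at 3 h. At 0, 9 and 14 h EP2KO was lower by 0.40, 0.12 and 0.21.

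With 1 array per group, the 3 h gap itself has no test. The fit can ask whether it departs from the gap of the other 3 times, and the departure was −1.08 ± 0.197 (SE; limma, unadjusted p = 0.000379, adjusted p = 0.235), which did not pass. No probe set passed in that comparison (0% called; 891 were at an unadjusted p under 0.05). After quantile normalization the gap at 3 h was −1.17, and with each array centred on its median −1.34. Leukocyte markers, of which 19 were measured, had the same mean log2 signal in both 3 h arrays, 6.93; Ptprc, the pan-leukocyte marker CD45, read 5.74 in WT and 5.6 in EP2KO. Of 5 measured erythroid markers 3 were higher in WT at 3 h, Hba-a1, Hbb-b2 and Alas2, and 2 were slightly lower, Epor and Klf1. Summed over the list, the log2 erythroid signal of the WT arrays was 12.56 at 3 h and 13.65 at 9 h, beside 11.58 and 11.51 for EP2KO. The part of blood cells in the Runx1 gap was not tested.

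Over both genotypes the early change of Runx1 did not pass (0.39 ± 0.238 at 3 h, limma, adjusted p = 0.205). Without the EP2KO 3 h array it was 0.93 and passed (adjusted p = 0.00237), and without the WT 3 h array −0.15 (adjusted p = 0.523). The late rise was shared: at 14 h all readings were above those of 9 h and of 0 h, with a change of 1.17 ± 0.238 from 0 h (adjusted p = 0.00411) and of 0.88 from 9 h (adjusted p = 0.0253). The order of the mean levels was 14, 3, 9 and 0 h. The 3 h readings, 8.68 and 10, spanned those of 9 h and of 0 h, so 3 h overlapped both. The rise from 9 h did not pass without the WT 0 h, EP2KO 0 h, WT 9 h or EP2KO 14 h array (adjusted p from 0.0533 to 0.198) or without a genotype term (adjusted p = 0.0873). The rise from 0 h did not pass without the WT 0 h array (1.09, adjusted p = 0.0629). Runx1 is also a gene of blood cells, and the summed leukocyte marker signal at 14 h was 12.24 in WT and 12.59 in EP2KO on the log2 scale, from 11.57 to 11.93 on the other arrays; the markers higher at 14 h included S100a8, Cd53 and Lyz2, while Ptprc stood at −0.18 and did not pass. Their part in the late rise of Runx1 was not tested.

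The distal start of Runx1 is shown with the site that runt proteins bind, TGTGGT, which reads ACCACA on the other strand. The 250 bases before that start (RefSeq, GRCm38.p6, chr16:92826075-92826324, minus strand, 5′ to 3′) hold none:
Runx1: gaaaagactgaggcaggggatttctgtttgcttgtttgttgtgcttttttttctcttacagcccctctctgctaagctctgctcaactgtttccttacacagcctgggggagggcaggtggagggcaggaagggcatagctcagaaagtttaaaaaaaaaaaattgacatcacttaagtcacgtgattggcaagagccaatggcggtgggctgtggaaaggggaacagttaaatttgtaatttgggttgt
Just after the start, however, there is a pair of them, in capitals, and the same pair stands after the start of Runx2, at chr16:92826027-92826051 and chr17:44814585-44814609, both on the minus strand:
Runx1: aaacaACCACAgaACCACAagttgg
Runx2: aaacaACCACAgaACCACAagtgcg
Of these 25 bases 23 are identical. The core was found in 16.8% of all promoter windows and at least 2 times in 1.81%; of the windows of these genes, only the distal Runx1 window and that of Runx2 hold it, and Runx2 has a further match beginning at base −80.

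Of 7 measured partners and corepressors of RUNX 1 rose and 1 fell at 3 h, where 20.1% of all genes were higher and 23% lower, so these counts were not above the background. Cbfa2t3 fell by 1.24 at 3 h and was 1.52 lower at 14 h, and Tle3, a Groucho corepressor, rose by 0.52 at 3 h and 1.02 by 14 h. Cbfb, the obligate partner, was 0.71 lower at 9 h. Of 10 genes tied to RUNX in granulosa cells, 4 rose and 2 fell at 3 h, beside the same 20.1% and 23% of all genes. At 9 h 5 were higher, beside 12.2% of all genes, and at 14 h 6 were higher and 1 lower, beside 15.6% and 15.7%. Mgp, a matrix protein, was up by 3.56 at 3 h and 4.08 at 9 h, Rgcc, a cell cycle regulator, by 3.28 and 3.01, and Mt1, a metallothionein, by 1.77 and 2.94. Sfrp4, a Wnt antagonist, was up by 1.70 at 3 h and 3.29 at 14 h. The profiles nearest to Runx1 were those of Cytip, a cell adhesion regulator, at 0.203, Bach1, a heme-sensing repressor, at 0.215 and Trp53inp2 at 0.253, against a median of 0.748.

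Nrip1 peaked at 3 h. It read 9.98, 11.04, 10.37 and 10.75 in WT at 0, 3, 9 and 14 h and 10.2, 10.75, 10.32 and 10.53 in EP2KO. All 6 arrays after hCG were above both 0 h arrays, and 3 h and 14 h met at 10.75. The rise at 3 h was 0.81 ± 0.141 (SE; limma, adjusted p = 0.00199), the fall from 3 to 9 h 0.55 (adjusted p = 0.0228), and at 14 h Nrip1 was 0.55 above 0 h (adjusted p = 0.0143). At 9 h it was 0.26 above 0 h and did not pass. The fall to 9 h did not pass after quantile normalization (−0.32, adjusted p = 0.0828) or without the WT 3 h, WT 9 h or EP2KO 9 h array (adjusted p from 0.0902 to 0.228), nor in a fit of the 4 arrays of 3 and 9 h alone (adjusted p = 0.0506). The 14 h call was lost without the WT 0 h array (0.35, adjusted p = 0.171) or the WT 14 h array (0.46, adjusted p = 0.111). Of 8 other coregulators of nuclear receptors, none rose at 3 h and 2 fell. Among all genes 20.1% were higher and 23% lower at 3 h, so the number lower was near the background. Those that fell were Ncoa1, by 0.57, and Ncoa3, by 0.38, both coactivators of the SRC family. The nearest profile to Nrip1 was that of Eif5, a translation initiation factor, at 0.0552, followed by Rbm17 and Copg1, against a median of 0.552.

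The PPAR genes moved in opposite directions in the first 3 h. Pparg read 8.86, 10.33, 7.98 and 7.02 in WT at 0, 3, 9 and 14 h and 9.39, 10.42, 8.73 and 6.98 in EP2KO. No neighbours in the order 3, 0, 9 and 14 h overlapped. It rose by 1.25 ± 0.18 at 3 h (SE; limma, adjusted p = 0.000728), then fell by 2.02 between 3 and 9 h (adjusted p = 0.000184) and by 1.36 between 9 and 14 h (adjusted p = 0.000454). At 14 h it was 2.13 ± 0.18 below 0 h (adjusted p = 1.3e-05), a 4.36-fold lower signal, and it passed under all 14 alternatives tried. The step from 9 to 14 h did not pass in a fit of the 4 arrays of those times alone (adjusted p = 0.0763). At 9 h it was 0.77 below 0 h (adjusted p = 0.0124). That difference did not pass without the WT 9 h array (−0.49, adjusted p = 0.164), the WT 0 h array (−0.90, adjusted p = 0.0559) or the EP2KO 0 h array (−0.64, adjusted p = 0.11).

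Pparg was higher in EP2KO by 0.53 at 0 h and by 0.75 at 9 h, and differed by 0.09 at 3 h and −0.04 at 14 h. The mean difference was 0.33 ± 0.127 (SE; limma, unadjusted p = 0.0255, adjusted p = 0.939) and did not pass. The profiles nearest to Pparg were those of Rbmxl1 at 0.243, Mid1ip1, a lipogenic regulator, at 0.25 and Cdca7, a cell cycle gene, at 0.256, against a median of 1.21.

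Ppara was lower at 3 h and 9 h than before hCG. It read 8.53, 7.39, 7.7 and 8.04 in WT at 0, 3, 9 and 14 h and 8.21, 7.68, 7.65 and 8.04 in EP2KO. Both 0 h arrays were above the other 6, and 3 h and 9 h overlapped at the bottom. It fell by 0.84 ± 0.147 at 3 h (SE; limma, adjusted p = 0.00201) and was 0.70 lower at 9 h (adjusted p = 0.00737). At 14 h it was 0.33 lower and did not pass (adjusted p = 0.125). The 9 h call was lost without the WT 0 h array (−0.50, adjusted p = 0.106) or the EP2KO 9 h array (−0.68, adjusted p = 0.0576). The closest profiles to Ppara, Spice1 at 0.044, Zhx1 at 0.0589 and Gtf3c4 at 0.0597, all came from probe sets whose names end in _r_at, a suffix that marks a probe set built with relaxed design rules. Such names make up 5.95% of the probe sets that could have been chosen.

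Of 7 measured partners of the PPARs none rose and 2 fell at 3 h, where 23% of all genes were lower, a share near the background. Rxra, the common dimer partner, fell by 0.42 and Ppargc1a, a coactivator read at or under the 4.8th percentile of every array, by 0.36. None passed at 9 or 14 h. The genes of fatty acid use that PPARs bind were higher late. Of 13 measured, 3 rose at 3 h, 6 were higher at 9 h and 8 at 14 h (20.1%, 12.2% and 15.6% of all genes), and none were lower at any of these times. Their median was 0.78 at 14 h, beside −0.05 for all genes. Cpt1a, which takes fatty acids into mitochondria, was up by 0.93 at 3 h, 1.17 at 9 h and 2.06 at 14 h, and Acadm, a β-oxidation enzyme, by 0.62, 1.18 and 1.56. Lpl, lipoprotein lipase, was up by 1.40 and Acadl by 1.21 at 14 h, after 0.17 and 0.39 at 9 h, which did not pass. Angptl4, an inhibitor of lipoprotein lipase, was up by 1.62 at 9 h. At both of these later times the Pparg signal was below its 0 h level. Ppara was lower at 9 h, and its difference at 14 h did not pass. The part of the PPARs in the changes of the fatty acid genes was not tested.

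**Figure D3:**
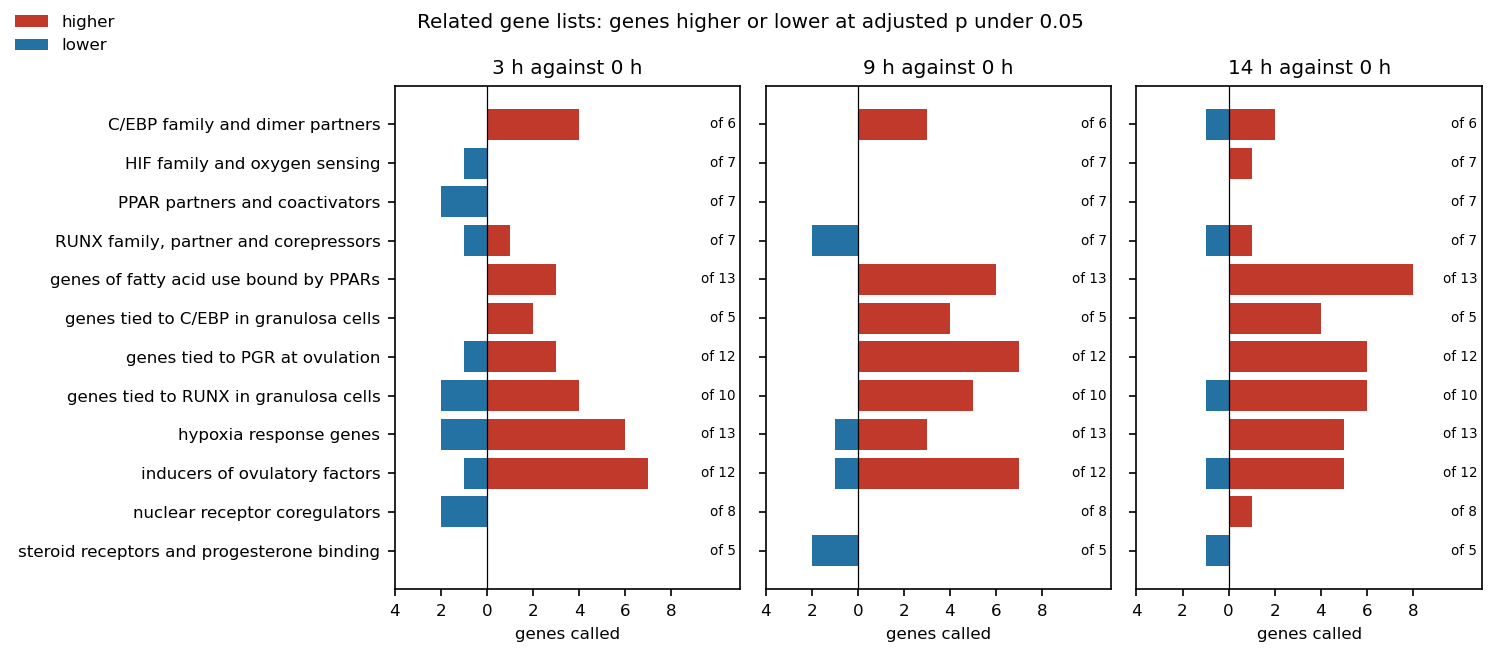
Bars count the genes of each related list that were higher (red, to the right) or lower (blue, to the left) than at 0 h at an adjusted p under 0.05 (limma, 1 lead probe set per gene), in 1 panel per time, with the number measured at the right. For fatty acid genes bound by PPARs the count of higher genes is 3, 6 and 8 of 13, while PPAR partners show 2 lower genes at 3 h only.

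Epas1 was lower at 14 h and otherwise flat within its spread. It read 6.69, 6.42, 6.71 and 6.11 in WT at 0, 3, 9 and 14 h and 6.44, 6.37, 6.37 and 6.11 in EP2KO, between the 18.4th and the 27.7th percentile of the arrays. The 14 h arrays were equal and below all others. In the order 0, 9, 3 and 14 h, the readings of 9 h overlapped those of 0 h and of 3 h. At 14 h it was 0.46 ± 0.127 lower than at 0 h (SE; limma, adjusted p = 0.0217) and 0.43 lower than at 9 h (adjusted p = 0.037). The first of these was lost without the WT 0 h, EP2KO 0 h or WT 14 h array, with adjusted p from 0.0595 to 0.177, and in a fit of the 4 arrays of 0 and 14 h alone (adjusted p = 0.059). The second was lost without any 1 of the 4 arrays of 9 and 14 h (changes from −0.31 to −0.55, adjusted p from 0.0522 to 0.391), without a genotype term (adjusted p = 0.0519) and with the 4 arrays of those times alone (adjusted p = 0.158). Endothelial cells are rich in Epas1. Of 11 endothelial markers 1 was higher and 2 were lower at 14 h, beside 15.6% and 15.7% of all genes. Cdh5 read from 6.29 to 6.64 at 0 and 3 h and from 7.75 to 8.56 at 9 and 14 h. Sox18 went the other way, from 8.63 (WT) and 8.46 (EP2KO) before hCG to 8.05 and 8.08 at 14 h. Averaged over the list, the log2 endothelial signal of the WT arrays went from 7.58 at 0 h to 7.57 at 14 h. That of the EP2KO arrays went from 7.44 to 7.5. The part of endothelial cells in the Epas1 result was not tested.

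Of 7 other measured genes of oxygen sensing, 1 fell at 3 h, Vhl by 0.32, none passed at 9 h, and Arnt2 was 0.39 higher at 14 h. Of 13 hypoxia response genes 6 rose and 2 fell at 3 h. Among all genes 20.1% were higher and 23% lower at 3 h, 12.2% and 11.6% at 9 h, and 15.6% and 15.7% at 14 h. Vegfa, the vascular growth factor, rose by 1.89, Hk2, a hexokinase, by 1.16 and Slc2a1, the glucose transporter GLUT1, by 1.15, while Bnip3, a mitophagy receptor, fell by 1.04. By 9 h Vegfa had dropped by 1.60 from 3 h, and at 14 h Ndrg1 was 3.06 above 0 h.

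The loss of EP2 was also asked of all 8 factors over the 4 times. The difference between EP2KO and WT passed for none of them at an adjusted p under 0.05, and for no other probe set (0% called; limma). At an unadjusted p under 0.05 there were 2 of the 8, Runx1 and Pparg, and 642 of all 12422. The largest mean differences were −0.51 ± 0.169 for Runx1 (SE; adjusted p = 0.897) and 0.33 for Pparg, and the other 6 lay between −0.16 and 0.08.

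At 3 h, 3 of the 8 factors differed by at least 0.5 between the arrays, as did 4.08% of all probe sets. Besides Runx1 these were Cebpb and Cebpd, each 0.53 lower in EP2KO. In both, EP2KO was higher at 0 h, by 0.37 and 0.32. The departure at 3 h was −0.81 ± 0.23 for Cebpb (SE; limma, unadjusted p = 0.00616, adjusted p = 0.517) and −0.77 ± 0.186 for Cebpd (unadjusted p = 0.00248, adjusted p = 0.362), and neither passed. By 9 h the Cebpb arrays differed by −0.01 and those of Cebpd by 0.24. Nrip1 was 0.29 lower and Ppara 0.29 higher in EP2KO at 3 h, and Pgr 0.13 higher. The departures at 9 h (0% of all probe sets called) and at 14 h (0.0805% called, 0.0644% higher and 0.0161% lower) passed for none of the 8. At an unadjusted p under 0.05 there were also none of the 8, against 131 of all probe sets at 9 h and 865 at 14 h.

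**Figure D4:**
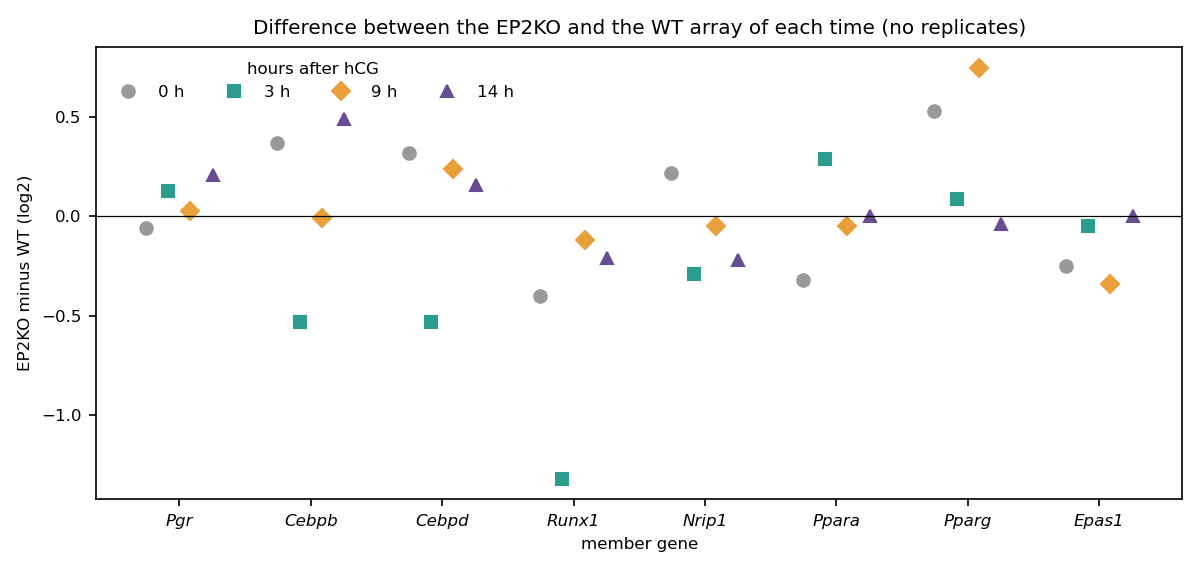
Points give the EP2KO minus WT difference in log2 signal (vertical axis) of each factor at 0, 3, 9 and 14 h, from 1 array per genotype and time and with no error bar. Runx1 at 3 h lies at −1.32, Cebpb and Cebpd at 3 h at −0.53, and the remaining points between −0.40 and 0.75.

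Genes known to act upstream of these factors were listed as inducers. Of 12 measured, 7 rose and 1 fell at 3 h, where 20.1% of all genes were higher and 23% lower. Crem, which encodes a cAMP-responsive regulator, rose by 3.77, the EGF-like ligands Ereg and Btc by 2.69 and 2.44, and Junb, an AP-1 subunit, by 2.08. At 0 h Btc was at or under the 6.3rd percentile of its arrays, so the size of its rise is not exact. In the 3 h arrays Crem read 11.73 in WT and 10.31 in EP2KO, a difference in the direction of Runx1, Cebpb and Cebpd. Also lower in EP2KO at 3 h were Ereg (9.16 in WT and 8.22 in EP2KO), Junb (10.98 and 10.27) and Btc (7.63 and 7.02). So were Fosl1, Egr1, Nr4a1 and Fosl2. Fos, at 11.17 and 11.39, went the other way, as did Creb1, Egfr and Nr5a2. At 9 h Crem read 8.57 in WT and 7.87 in EP2KO, while Cebpb differed by −0.01 and Cebpd was 0.24 higher in EP2KO. The departure of Crem at 3 h was −1.11 and did not pass.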

How the data were processed

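Arrays were Affymetrix MG_U74Av2, hybridised after 2 rounds of amplification from 100 ng of total RNA, per the labels' protocols, which name WT RNA only. The deposited values are log2 signals made by the authors with RMA, per the submitters' processing notes. They were used as deposited. Of 12488 probe sets 66 controls were left out; low values were kept. Symbols come from GEO's platform annotation. Promoters come from RefSeq (GRCm38.p6); Cebpd and Epas1 had no entry.

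R 4.3.3 and limma 3.58.1 (lmFit, eBayes) were used, with time and genotype as terms over the 8 arrays; departures added 1 term for the EP2KO array of a time. P-values are two-sided and adjusted by Benjamini-Hochberg over 12422 probe sets, threshold 0.05. With 1 array per group they rest on scatter about the fitted terms, technical scatter included. The number of arrays limits precision. For listed genes the probe set of highest mean signal was read. The fits were tested on simulated data with independent normal noise. The simulated arrays held no differences in RNA quality or in spread, so the test does not cover these.

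The members and lists were chosen with earlier results of these data known. Named were all members, up to 4 genes of a list and contrast by size past the threshold, others only where a result turned on them, and the 3 nearest profiles of members spanning at least 1 log2 unit. Alternatives were median centring, quantile normalization, leaving out the lowest 40% of probe sets, a variance trend, no genotype term, only the arrays of the times compared, and each array left out; leaving out both 14 h arrays was added for comparisons without 14 h after seeing the data.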

Additional observations from a re-analysis of the deposited data

Results flagged for a closer look

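Runx1 changed in opposite directions in WT and EP2KO between 0 and 3 h, by 0.85 and −0.07, and the change in EP2KO was lower than that in WT by a difference of −0.92. Between 3 and 9 h it moved by −0.70 in WT and 0.50 in EP2KO, a difference of 1.20. In the same interval Cebpb moved by −0.01 and 0.51 (difference 0.52), Cebpd by −0.15 and 0.62 (difference 0.77), and Ppara by 0.31 and −0.03 (difference −0.34). The opposite signs of Pgr and Epas1 between 0 and 9 h came with differences of 0.09 and −0.09, and those of Pgr between 0 and 14 h with 0.27. Each rests on 1 array per genotype and time, and none of these differences between the changes was tested. Over all probe sets the signs were opposite for 16.7% between 0 and 3 h, 18.5% between 0 and 9 h, 27.1% between 0 and 14 h and 20.6% between 3 and 9 h.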

How the results depend on the processing

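For the 8 factors, 880 of 926 single-gene fits under an alternative stayed on the same side of the threshold, and no called value turned. Of the calls, 43 were lost, 34 of them with 1 array left out, and 3 were gained. The 926 include results not called with all arrays, which had no call to lose, among them every genotype and departure fit. All lost calls were in comparisons of times. They make up a larger share of the fits of called results than of the 926. The counts of factors called, with 1 array left out, ran from 5 to 7 at 3 h, 2 to 4 at 9 h and 1 to 6 at 14 h against 0 h, 1 to 3 for 9 h against 3 h and 3 to 5 for 14 h against 9 h; for the genotype and the departures they were 0 throughout. Without the WT 0 h array, the 14 h count was 1 (Pparg) and the 9 h count 2, and without the WT 14 h array the 14 h count was 3. Without either 9 h array the count was 1 for 9 h against 3 h, and without any 1 array of 9 or 14 h it was 3 for 14 h against 9 h. Without the genotype term 3 factors were called for 14 h against 9 h. With only the arrays of the times compared, the count was 1 for 9 h against 3 h and 2 for 14 h against 9 h. Over all probe sets, calls with 1 array left out ran from 1897 to 5471 at 3 h (5313 with all arrays), from 1225 to 3036 at 9 h (2852) and from 2289 to 3809 at 14 h (3575). For 9 h against 3 h they ran from 489 to 2605 (2412), and for 14 h against 9 h from 1286 to 2668 (2496). With only the arrays of the times compared, 2888 were called at 3 h, 1257 for 9 h against 3 h and 699 for 14 h against 9 h, and leaving out the lowest 40% gave 3482 at 3 h. Pgr and Epas1 were not tested there. Fewer arrays leave fewer residual degrees of freedom; the cause of single losses was not tested. Each gene had 1 probe set, so averaging probe sets changed nothing. No paired analysis was possible because all replicate numbers are 1 and the labels link no animals. Departures could not be fitted without an array of their own time. Leaving out both 14 h arrays changed no count of factors.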
